A study of Mus musculus with 9 samples.

Results

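The 47 genes described here encode proteins of DNA replication, of mitosis and of the cyclin and cyclin-dependent kinase machinery. They are a list of named genes, taken whatever their level: 3 that license replication origins, 7 of the replicative helicase, 8 of the replication fork and its sliding clamp, 4 of nucleotide supply, 3 D-type cyclins with Cdk4, 2 E-type cyclins with Cdk2, 15 of G2 and mitosis, and 3 inhibitors of cyclin-dependent kinases. All 47 were found by symbol among the 55385 gene identifiers of the deposited tables. Of these, 32 reached 1 FPKM (fragments per kilobase, scaled to all mapped fragments in a library) in at least 3 of the 9 libraries and were tested. The other 15 stayed below that level, and their values are given as a description, with tests only where no filter is stated.

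A dividing cell first commits in G1, when D-type cyclins with Cdk4 or Cdk6 and then E-type cyclins with Cdk2 phosphorylate the retinoblastoma protein and release the E2F transcription factors. E2F switches on the genes that license origins, load the MCM helicase, make deoxynucleotides and copy DNA. A later set of genes, many controlled through CHR and CCAAT elements, drives G2 and mitosis, and the p53 target p21 can halt the cycle at either step. Adult kidney tubule cells divide rarely, and surviving tubule cells are known to re-enter the cycle after acute injury.

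RNA of whole C57BL/6 mouse kidneys was sequenced in bulk, with 3 groups and 3 biological repeats in each. Cis3d kidneys were taken 3 days, and Cis7d kidneys 7 days, after a single intraperitoneal dose of 20 mg/kg cisplatin, which forms platinum crosslinks in DNA and harms tubule cells. Sham mice were injected with normal saline in the same volume. No group carries a genetic change per the labels. Age and sex of the mice are not given in the sources here.

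The deposited FPKM sum to between 421810 and 509537 per library, and read depth is unknown because the tables hold no counts. FPKM is scaled within a library, so fold changes are relative. On the log2(FPKM + 1) scale the median of all 13718 tested genes was 0.25 for day 3 over sham, 0.06 for day 7 over sham and -0.16 for day 7 over day 3. Median-of-ratios scaling moved these medians to 0.03, -0.02 and -0.02, so the fold changes given here are to be read against the first set. The tubule injury gene Havcr1 stood at 402.12, 141.44 and 163.26 FPKM at day 3, 1.04, 58.22 and 1.45 FPKM at day 7 and 8.29, 35.45 and 1.5 FPKM in sham. Slc34a1, a proximal tubule transporter of phosphate, measured 9.83, 37.32 and 45.43 FPKM at day 3, 587.23, 497.57 and 619.68 FPKM at day 7 and 393.54, 987.55 and 1051.23 FPKM in sham, so the kidney label and the day 3 injury were both visible. Day 7 library 2 stood apart from the other 2 day 7 libraries, and sham library 2 from the other 2 sham libraries, in Havcr1 and in many of the 47 genes.

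At day 3 genes of S phase entry were among those higher than in sham. Of G2 and mitosis, 1 of the 5 tested genes was called, and the other 10 of that class stayed below the filter. This sets no contrast between S phase and mitosis. A separate mitosis list, given below, had 8 of 13 tested genes higher and 0 lower, with a median log2 fold change of 0.68. A separate S phase list had 15 of 22 higher and 2 lower, with a median of 0.52. The lists were not tested against each other. Of the 32 tested genes 13 rose and 0 fell (limma, adjusted p under 0.05), led by Rrm2, Cdt1, Pcna, Ccne2, Cdc20 and Mcm7. Among all tested genes 59.9% were called in this comparison, 39.3% higher and 20.6% lower, so the share of called cell cycle genes (40.6%) lay below that of the whole table. Their median log2 fold change was 0.59, against 0.25 for all tested genes. Under median-of-ratios scaling 11 of the 32 were called higher and 2 lower (Tyms and Ccnd3), beside 29.8% higher and 28.8% lower of all tested genes. Without day 7 library 2 and sham library 2 together, 17 were called higher and 1 lower, beside 33.4% higher and 16.5% lower of all tested genes. Sham library 2 was the highest of its group for 33 of the 46 genes with a mean of at least 0.1 FPKM. Leaving it out therefore lowers the sham mean of those genes. Genes pass the expression filter through their high group, so these counts describe the list and support no statement about it. In whole tissue, a change in the number of cells of a type and a change in RNA per cell cannot be told apart.

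**Figure D1:**
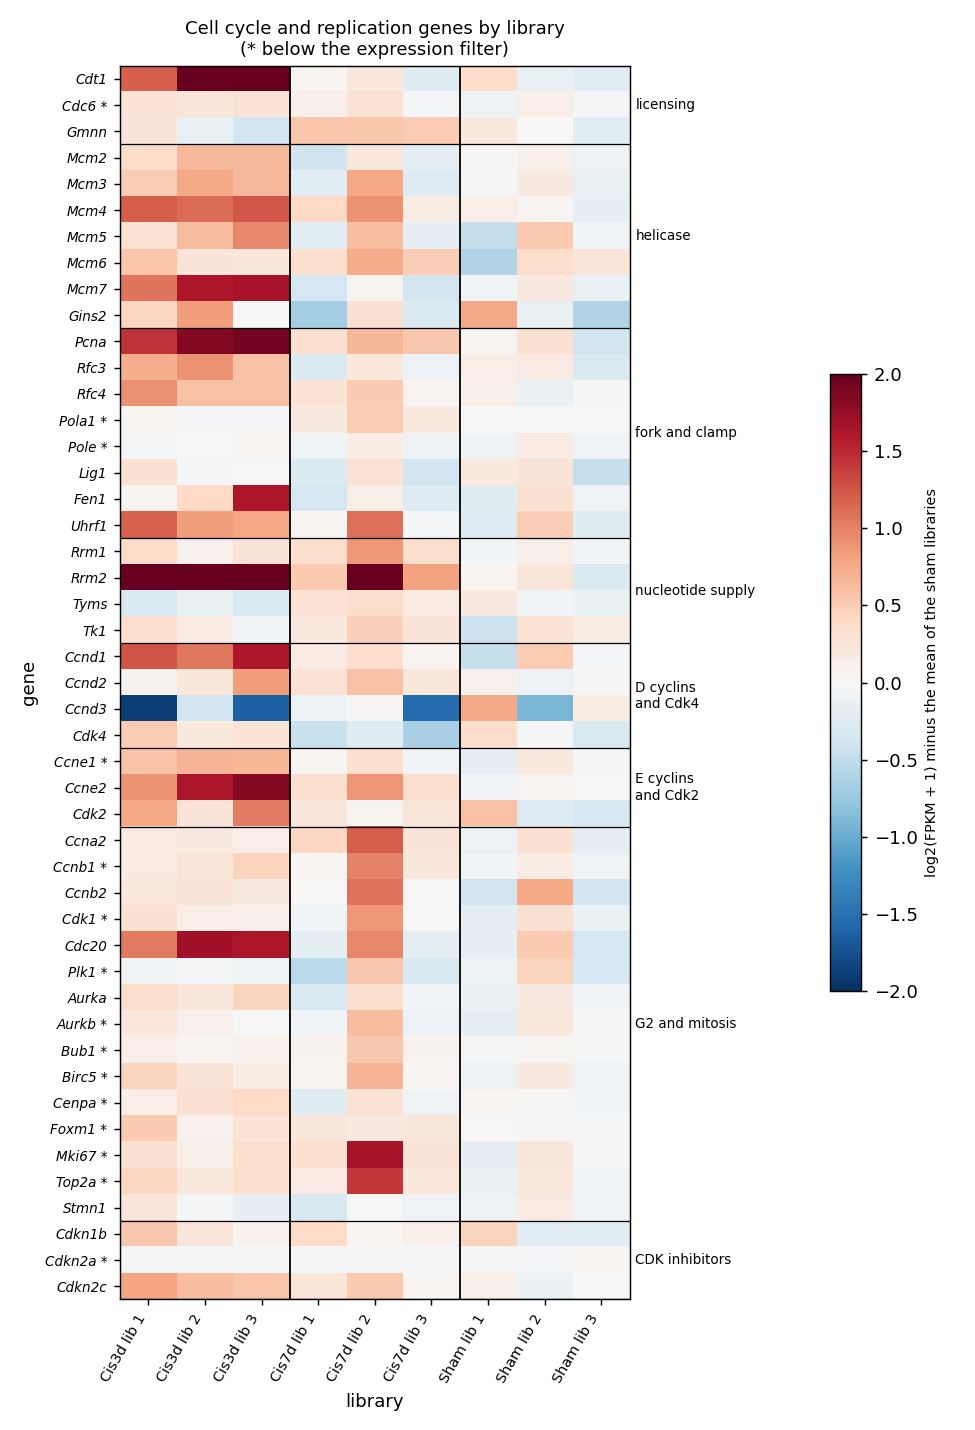
Level of each of the 47 genes (rows, grouped by role) in each of the 9 libraries (columns), as log2(FPKM + 1) minus the mean of the 3 sham libraries; an asterisk marks the 15 genes below the expression filter. Cdt1, Mcm7, Pcna and Rrm2 are red in all 3 day 3 libraries, and the genes of G2 and mitosis are red mainly in day 7 library 2.

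Origin licensing depends on Cdt1 and Cdc6, which load the MCM helicase onto DNA, and is blocked by geminin (Gmnn), which binds Cdt1. Cdt1 (chromosome 8, 122568015 to 122573554 on GRCm38) stood at 3.26, 6.28 and 7.13 FPKM at day 3, 0.91, 1.16 and 0.57 FPKM at day 7 and 1.39, 0.70 and 0.58 FPKM in sham. Every day 3 library was above every sham library, and the day 7 and sham ranges overlapped. The day 3 rise was 1.77 ± 0.26 on the log2 scale (SE, adjusted p = 0.000506, limma), or 3.4-fold. Cdc6 was low throughout, at 0.33, 0.30 and 0.35 FPKM at day 3, 0.18, 0.35 and 0.09 FPKM at day 7 and 0.03, 0.21 and 0.08 FPKM in sham. Its day 3 libraries were all above sham, and it was below the filter. Gmnn showed no such pattern: it was at 5.36, 3.79 and 3.08 FPKM at day 3, 6.74, 6.75 and 6.56 FPKM at day 7 and 5.08, 4.31 and 3.59 FPKM in sham. Day 7 was thus the group in which geminin transcripts lay above all other libraries, and the day 3 and sham ranges overlapped (log2 fold change -0.08, adjusted p = 0.691).

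The MCM2 to MCM7 proteins form the ring of the replicative helicase, and Gins2 is a subunit of the GINS complex that activates it. Mcm7 (chromosome 5, 138164583 to 138172422) had 10.84, 16.41 and 16.64 FPKM at day 3, 3.47, 4.90 and 3.38 FPKM at day 7 and 4.46, 5.40 and 4.17 FPKM in sham. Mcm4 had 4.55, 4.21 and 4.66 FPKM at day 3, 2.15, 3.47 and 1.67 FPKM at day 7 and 1.63, 1.46 and 1.13 FPKM in sham. Both were higher in every day 3 library than in any other library, and the day 3 rises were 1.44 ± 0.19 for Mcm7 (adjusted p = 0.000258) and 1.19 ± 0.18 for Mcm4 (adjusted p = 0.000619). Mcm2 was at 2.87, 3.74 and 3.70 FPKM at day 3, 1.28, 2.48 and 1.64 FPKM at day 7 and 2.05, 2.23 and 1.77 FPKM in sham. Its rise of 0.55 ± 0.17 (adjusted p = 0.0198) was the smallest of the 13, and it missed the threshold with quantile normalization (adjusted p = 0.178), with median-of-ratios scaling (adjusted p = 0.0946) and without day 3 library 2 (0.0639), day 3 library 3 (0.0614) or sham library 3 (0.0634).

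The other helicase genes did not pass the day 3 test. Mcm3 had 2.23, 2.84 and 2.59 FPKM at day 3, 0.96, 2.88 and 0.90 FPKM at day 7 and 1.22, 1.57 and 1.08 FPKM in sham, with all day 3 libraries above sham (log2 fold change 0.64, adjusted p = 0.0588). Mcm5 had 1.82, 2.59 and 3.49 FPKM at day 3, 1.0, 2.5 and 1.03 FPKM at day 7 and 0.66, 2.34 and 1.23 FPKM in sham. Mcm6, the most abundant of the rest, had 6.56, 5.20 and 5.07 FPKM at day 3, 5.51, 7.64 and 6.27 FPKM at day 7 and 2.41, 5.60 and 5.11 FPKM in sham. The groups overlapped for Mcm5 and Mcm6, whose day 3 log2 fold changes were 0.63 (adjusted p = 0.112) and 0.35 (adjusted p = 0.245). Gins2 varied within groups, with 1.85, 2.76 and 1.13 FPKM at day 3, 0.32, 1.60 and 0.72 FPKM at day 7 and 2.56, 0.90 and 0.39 FPKM in sham. Within the ring the day 3 ratio to sham, on the FPKM + 1 scale, ran from 1.27 for Mcm6 to 2.72 for Mcm7, and the difference between subunits was not tested. Mcm7 overlaps Cops6 and Ap4m1 on the opposite strand and holds Mir25, Mir93 and Mir106b, and since no source used here gives the strand setting of the counting, reads of overlapping genes cannot be told apart.

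At the fork, PCNA is the sliding clamp, replication factor C (Rfc3, Rfc4) loads it, Pola1 and Pole are polymerase subunits, Lig1 and Fen1 finish Okazaki fragments, and UHRF1 carries DNA methylation to the new strand. Pcna (chromosome 2, 132249162 to 132253314) was the most abundant of them, at 31.52, 41.47 and 43.69 FPKM at day 3, 13.88, 17.84 and 16.20 FPKM at day 7 and 11.38, 13.69 and 8.23 FPKM in sham. The 3 groups did not overlap, in the order day 3, day 7, sham, and the day 3 rise was 1.73 ± 0.20 (adjusted p = 0.000111), or 3.33-fold. Pcna is also a known p53 target. Rfc3 stood at 2.92, 3.40 and 2.52 FPKM at day 3, 0.92, 1.73 and 1.17 FPKM at day 7 and 1.58, 1.63 and 0.93 FPKM in sham. Rfc4 stood at 4.57, 3.43 and 3.46 FPKM at day 3, 2.57, 3.26 and 2.08 FPKM at day 7 and 2.21, 1.71 and 2.00 FPKM in sham. Both clamp loader genes lay above all sham libraries at day 3 and rose by 0.74 ± 0.18 (Rfc3, adjusted p = 0.00647) and 0.69 ± 0.15 (Rfc4, adjusted p = 0.00438).

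Uhrf1 was at 2.34, 1.63 and 1.53 FPKM at day 3, 0.51, 2.16 and 0.45 FPKM at day 7 and 0.23, 1.08 and 0.25 FPKM in sham. The second library was the highest at day 7 and in sham. Its day 3 rise of 0.93 ± 0.32 (adjusted p = 0.0337) missed the threshold with median-of-ratios scaling (0.0571), quantile normalization (0.0814), without the filter (0.0726) and without day 3 library 1 (0.097), 2 (0.0626) or 3 (0.0544) or sham library 1 (0.0945) or 3 (0.0996), all as adjusted p. Fen1 had 3.25, 4.38 and 11.56 FPKM at day 3, 2.23, 3.40 and 2.40 FPKM at day 7 and 2.46, 4.06 and 2.87 FPKM in sham, so that day 3 library 3 alone stood far out (adjusted p = 0.129). Lig1 was at 2.30, 1.61 and 1.65 FPKM at day 3, 1.21, 2.26 and 1.05 FPKM at day 7 and 2.06, 2.21 and 0.94 FPKM in sham, with no separation between groups. The polymerase genes were low, Pola1 at 0.27, 0.20 and 0.20 FPKM at day 3, 0.40, 0.75 and 0.41 FPKM at day 7 and 0.23, 0.25 and 0.23 FPKM in sham. Pola1 thus lay higher in all 3 day 7 libraries than in any other, whereas Pole overlapped between groups, at 0.10 to 0.33 FPKM over the 9 libraries. With no filter the day 7 over day 3 difference of Pola1 was called (0.31, adjusted p = 0.0371, limma), where 29.3% of 32394 genes were called.

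Nucleotide supply was led by Rrm2, the subunit of ribonucleotide reductase whose level rises in S phase. Rrm2 (chromosome 12, 24708241 to 24714146) stood at 8.86, 9.24 and 9.10 FPKM at day 3, 1.97, 7.28 and 2.59 FPKM at day 7 and 1.13, 1.45 and 0.68 FPKM in sham. The 3 day 3 values were close together and above all others, and the day 3 rise of 2.29 ± 0.34 (adjusted p = 0.000473), or 4.88-fold, was the largest among the 32 tested genes on the log2(FPKM + 1) scale. With a pseudocount of 0.1 and no filter, Ccne2 (8.51-fold, the gene of an E-type cyclin) came before Rrm2 (8.03-fold). Its partner subunit Rrm1 had 1.81, 1.27 and 1.56 FPKM at day 3, 1.73, 2.94 and 1.75 FPKM at day 7 and 1.06, 1.33 and 1.07 FPKM in sham, and the day 3 difference did not pass the test (0.24, adjusted p = 0.238). Thymidylate synthase (Tyms) was at 1.54, 1.83 and 1.55 FPKM at day 3, 2.83, 3.01 and 2.51 FPKM at day 7 and 2.56, 2.02 and 1.86 FPKM in sham. Its day 3 libraries were all below sham, a difference of -0.25 that did not pass (adjusted p = 0.106) but did with median-of-ratios scaling (-0.44, adjusted p = 0.00547) and quantile normalization (-0.52, adjusted p = 0.00165). Thymidine kinase (Tk1) overlapped between groups, with 1.5, 1.22 and 0.91 FPKM at day 3, 1.27, 1.76 and 1.36 FPKM at day 7 and 0.48, 1.39 and 1.19 FPKM in sham, and its day 3 difference of 0.15 turned to -0.01 under median-of-ratios scaling.

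**Figure D2:**
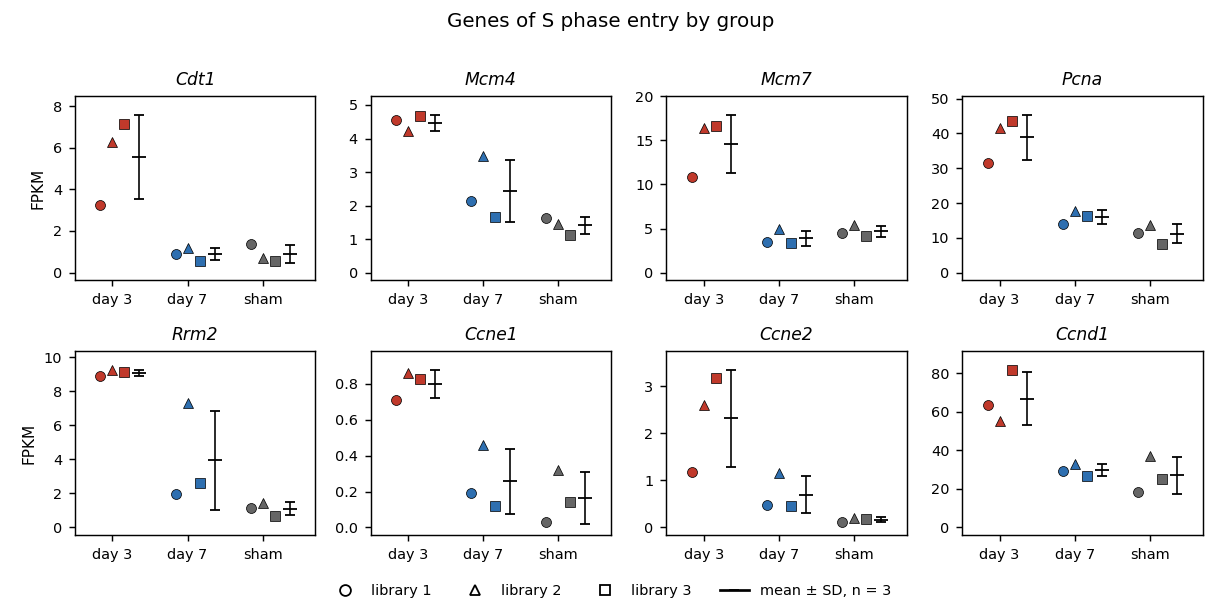
FPKM (y axis, from 0) of 8 genes of S phase entry in the day 3, day 7 and sham libraries; symbols are single libraries and the black bars are the mean ± SD of 3. In each panel the 3 day 3 libraries lie above the 3 sham libraries, and the second day 7 library is the highest of its group.

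The D-type cyclins respond to growth signals, and with Cdk4 they start the phosphorylation of the retinoblastoma protein. Ccnd1, by far the most abundant cyclin here, was at 63.23, 54.96 and 81.79 FPKM at day 3, 29.17, 32.98 and 26.80 FPKM at day 7 and 18.57, 37.09 and 25.13 FPKM in sham. Day 3 lay above all other libraries, and the rise was 1.31 ± 0.24 (adjusted p = 0.00156), or 2.48-fold. Ccnd2 had 0.92, 1.16 and 2.29 FPKM at day 3, 1.24, 1.76 and 1.16 FPKM at day 7 and 0.96, 0.70 and 0.86 FPKM in sham, with the day 7 libraries above sham and no call. Ccnd3 spread widely within each group, at 0.93, 4.47 and 1.28 FPKM at day 3, 5.51, 6.24 and 1.45 FPKM at day 7 and 10.98, 2.78 and 6.89 FPKM in sham. Its day 3 difference of -1.30 ± 0.57 did not pass (adjusted p = 0.0795), but did with median-of-ratios scaling (-1.5, adjusted p = 0.0441) and quantile normalization (-1.55, adjusted p = 0.0381). Cdk4 stood at 27.69, 22.03 and 23.28 FPKM at day 3, 13.69, 16.06 and 11.77 FPKM at day 7 and 24.56, 18.47 and 15.29 FPKM in sham, and the day 3 and sham ranges overlapped (0.33, adjusted p = 0.155). Ccnd3 overlaps Bysl, and Cdk4 overlaps Tspan31, on the opposite strand.

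Cyclin E with Cdk2 fires the origins. Ccne2 was at 1.18, 2.60 and 3.18 FPKM at day 3, 0.47, 1.15 and 0.46 FPKM at day 7 and 0.12, 0.21 and 0.17 FPKM in sham. The 3 groups did not overlap, and the day 3 rise was 1.46 ± 0.25 (adjusted p = 0.00101), on a scale that understates changes of genes this low. Ccne1 stayed below 1 FPKM, at 0.71, 0.86 and 0.83 FPKM at day 3, 0.19, 0.46 and 0.12 FPKM at day 7 and 0.03, 0.32 and 0.14 FPKM in sham. Day 3 again lay above every other library, and with no expression filter, where 31.2% of 32394 genes were called, Ccne1 was called with a log2 fold change of 0.64 (adjusted p = 0.0058). Cdk2 had 3.11, 1.85 and 3.89 FPKM at day 3, 1.79, 1.49 and 1.84 FPKM at day 7 and 2.59, 1.01 and 0.90 FPKM in sham. Sham library 1 overlapped day 3, and the difference of 0.69 just missed the threshold (adjusted p = 0.0536).

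Promoters of these genes were read for the E2F element, written TTTCGCGC or TTTGGCGC, on both strands. The RefSeq table on GRCm38.p6 gives 300 bases per promoter, 250 before the start and 50 after, and it matched 36 of the 47 genes with 44 promoters. The element was in 9 of 25 promoters of replication, nucleotide supply and cyclin E genes with Cdk2 (36%), in 1 of 11 promoters of G2 and mitosis genes (9.09%) and in 0.813% of all 32851 promoters of the table. Mcm7 (the second of its promoters in the table, chr5:138171834-138172133, minus strand) and Cdt1 (chr8:122567765-122568064, plus strand) are shown because both rose at day 3 and both carry the element. Capitals mark the E2F element, the CCAAT box and the CHR element, either strand. In Mcm7 the E2F element shares 1 base with a CCAAT box.
Mcm7: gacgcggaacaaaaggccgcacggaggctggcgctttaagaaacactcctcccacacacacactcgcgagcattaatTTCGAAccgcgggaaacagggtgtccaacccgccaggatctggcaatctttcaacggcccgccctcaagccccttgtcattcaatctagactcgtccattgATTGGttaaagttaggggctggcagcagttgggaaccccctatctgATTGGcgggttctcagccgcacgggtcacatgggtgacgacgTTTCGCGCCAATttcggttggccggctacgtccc
Cdt1: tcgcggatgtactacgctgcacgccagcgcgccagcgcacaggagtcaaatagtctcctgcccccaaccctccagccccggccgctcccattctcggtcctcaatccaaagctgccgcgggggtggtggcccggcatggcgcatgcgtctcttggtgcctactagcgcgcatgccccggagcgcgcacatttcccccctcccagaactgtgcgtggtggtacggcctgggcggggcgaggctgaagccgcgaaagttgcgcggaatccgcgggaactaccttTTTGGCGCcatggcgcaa
A match is a description of letters and not a binding site. Besides Mcm7 and Cdt1, a promoter of Rfc3 and of Uhrf1, both called at day 3, held the E2F element. So did a promoter of Mcm3, Mcm5, Mcm6 and Lig1, which were not called at day 3, and of Pola1, which was below the filter. Neither written form was in the promoters of Pcna, Rrm2, Mcm2, Rfc4, Cdc20 and Cdkn2c, all called at day 3. The same held for Ccne1, which was below the filter and above sham in every day 3 library, and for the first promoter of Mcm7. Other forms of the element were not read, and 11 of the 47 genes were not in the table.

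Genes of G2 and mitosis were low at day 3 and in sham, apart from Stmn1 and Cdc20. Of the 15, 5 passed the filter and 1 rose. Cdc20, the activator of the anaphase-promoting complex, was at 2.66, 4.66 and 4.51 FPKM at day 3, 0.55, 2.46 and 0.57 FPKM at day 7 and 0.58, 1.55 and 0.39 FPKM in sham. It lay above all other libraries at day 3 and rose by 1.45 ± 0.36 (adjusted p = 0.0071), or 2.73-fold. Cdc20 overlaps Elovl1 on the opposite strand. Ccna2, cyclin A of S phase and G2, had 0.85, 0.86 and 0.81 FPKM at day 3, 1.19, 2.82 and 0.97 FPKM at day 7 and 0.52, 1.04 and 0.45 FPKM in sham. Ccnb2, a B-type cyclin of mitosis, had 0.98, 1.04 and 0.92 FPKM at day 3, 0.72, 2.61 and 0.69 FPKM at day 7 and 0.30, 1.92 and 0.30 FPKM in sham. For both, sham library 2 stood above the 3 day 3 libraries, and the 95% intervals of the day 3 log2 fold change ran from -0.40 to 0.71 (Ccna2) and from -0.63 to 1.06 (Ccnb2). Both differences were positive as deposited and below 0 under quantile normalization (-0.07 and -0.02).

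Mki67, which encodes the proliferation marker Ki-67, stood at 0.49, 0.31 and 0.50 FPKM at day 3, 0.50, 2.75 and 0.43 FPKM at day 7 and 0.06, 0.40 and 0.17 FPKM in sham. Top2a, the topoisomerase that untangles chromosomes, stood at 0.67, 0.44 and 0.55 FPKM at day 3, 0.40, 2.31 and 0.44 FPKM at day 7 and 0.14, 0.44 and 0.18 FPKM in sham. The second sham library reached the day 3 range for both, and without the filter neither day 3 difference was called (0.25, adjusted p = 0.611 for Mki67, and 0.31, adjusted p = 0.481 for Top2a). Cdk1, the mitotic kinase, was at 0.55, 0.37 and 0.35 FPKM at day 3, 0.21, 1.29 and 0.25 FPKM at day 7 and 0.11, 0.55 and 0.15 FPKM in sham. Its cyclin Ccnb1 was at 0.24, 0.31 and 0.50 FPKM at day 3, 0.14, 1.20 and 0.29 FPKM at day 7 and 0.06, 0.23 and 0.04 FPKM in sham, where day 3 narrowly cleared sham. Plk1, the kinase of mitotic entry, was at 0.77, 0.80 and 0.75 FPKM at day 3, 0.28, 1.69 and 0.48 FPKM at day 7 and 0.73, 1.53 and 0.45 FPKM in sham. Nearly level values within day 3 therefore sat inside a wide sham range for Plk1.

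Aurora kinase A (Aurka), which builds the spindle poles, had 1.30, 1.12 and 1.46 FPKM at day 3, 0.47, 1.26 and 0.74 FPKM at day 7 and 0.65, 1.06 and 0.75 FPKM in sham, all day 3 libraries above sham with no call (adjusted p = 0.117). Aurkb, of the chromosomal passenger complex, had 0.45, 0.33 and 0.24 FPKM at day 3, 0.20, 0.92 and 0.15 FPKM at day 7 and 0.11, 0.44 and 0.22 FPKM in sham. Birc5 (survivin), of the same complex, had 0.80, 0.59 and 0.47 FPKM at day 3, 0.37, 1.12 and 0.36 FPKM at day 7 and 0.24, 0.50 and 0.26 FPKM in sham. Their day 3 and sham ranges overlapped through the second sham library. The spindle checkpoint kinase gene Bub1 was at 0.12, 0.04 and 0.08 FPKM at day 3 and 0.07, 0.47 and 0.07 FPKM at day 7, and listed at 0, 0.05 and 0 FPKM in sham. Cenpa, the centromeric histone, had 0.45, 0.64 and 0.74 FPKM at day 3, 0.12, 0.62 and 0.26 FPKM at day 7 and 0.36, 0.34 and 0.27 FPKM in sham. Day 3 was above sham in every library for Cenpa and for Foxm1, the transcription factor of G2 genes, which had 0.55, 0.14 and 0.30 FPKM at day 3, 0.26, 0.22 and 0.26 FPKM at day 7 and 0.07, 0.10 and 0.06 FPKM in sham. Stmn1, a microtubule regulator that many non-dividing cells also make, was the exception in level, at 21.84, 17.80 and 16.22 FPKM at day 3, 14.55, 18.46 and 17.46 FPKM at day 7 and 16.98, 20.84 and 17.58 FPKM in sham, with a 95% interval of the day 3 log2 fold change from -0.33 to 0.34. The log2(FPKM + 1) scale compresses differences at the levels of the other genes of this class. With a pseudocount of 0.1 and no filter, Mki67 was 1.89-fold and Ccnb1 2.25-fold of sham at day 3 with no call (adjusted p = 0.348 and 0.203), and 2 of the 15 were called, Cdc20 and Foxm1 (2.26-fold, adjusted p = 0.0402), beside 22.8% of all genes called higher in that setting.

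**Figure D3:**
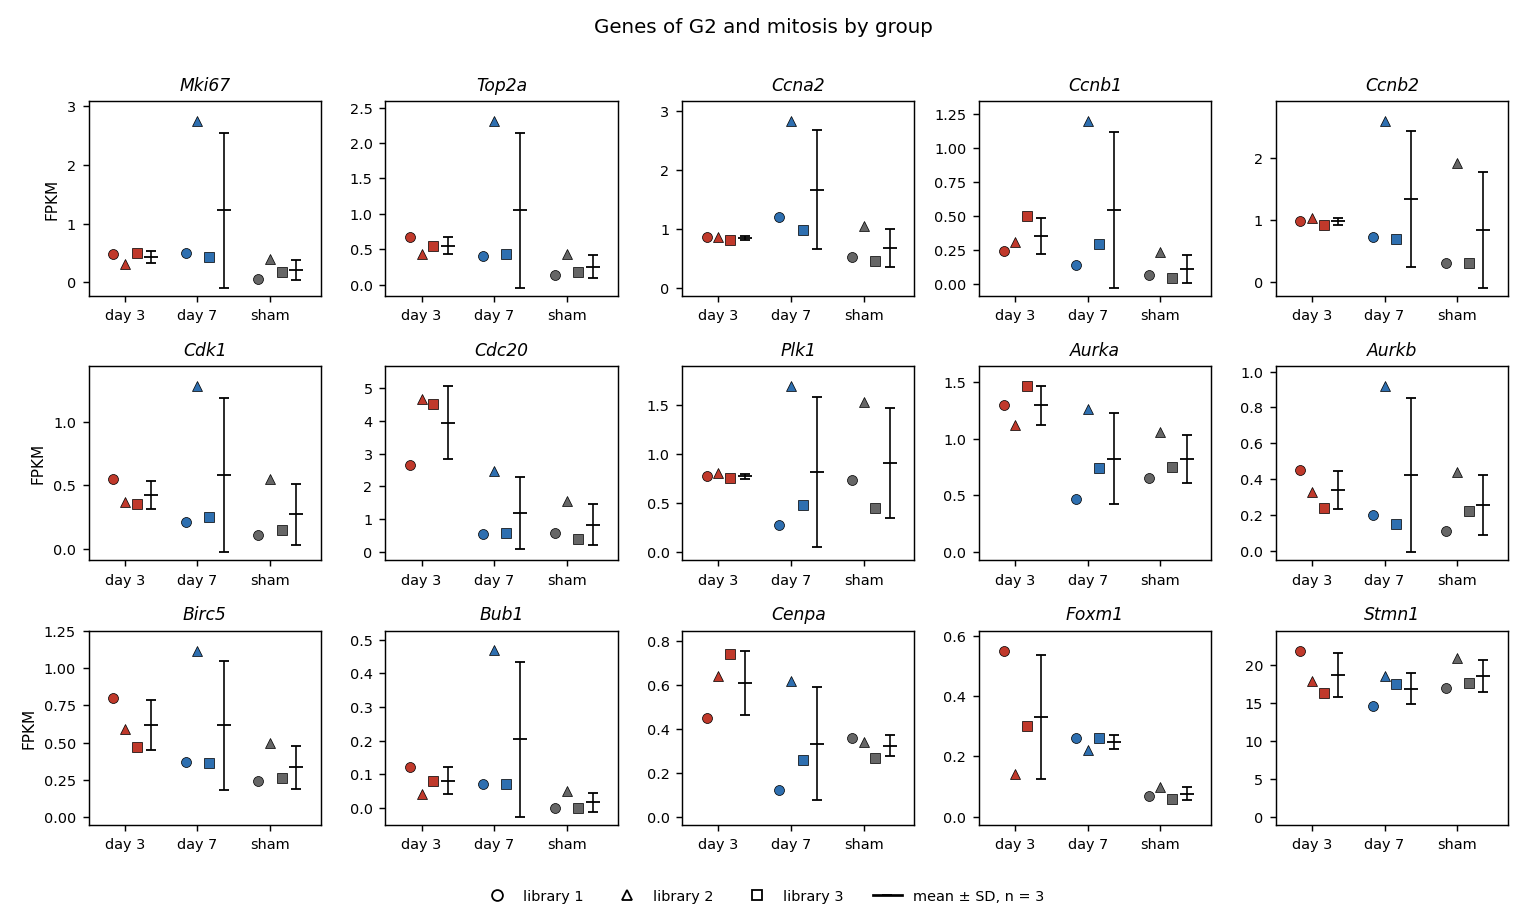
FPKM (y axis) of the 15 genes of G2 and mitosis in the day 3, day 7 and sham libraries; symbols are single libraries, the triangle is the second library of each group and the black bars are the mean ± SD of 3. The highest point is day 7 library 2 in 10 of the 15 panels, as with Mki67 at 2.75 FPKM, and a day 3 library for Cdc20, Aurka, Cenpa, Foxm1 and Stmn1.

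Of the 3 inhibitors on the list, Cdkn2c (p18, which blocks Cdk4 and Cdk6) was at 4.70, 4.08 and 3.84 FPKM at day 3, 2.90, 3.72 and 2.37 FPKM at day 7 and 2.59, 2.00 and 2.33 FPKM in sham. It lay above all other libraries at day 3 and rose by 0.66 ± 0.15 (adjusted p = 0.00449). Cdkn1b (p27) had 9.41, 7.55 and 6.59 FPKM at day 3, 8.37, 6.37 and 6.77 FPKM at day 7 and 8.77, 5.18 and 5.19 FPKM in sham, and the groups overlapped. Cdkn2a (p16 and p19Arf) was listed at 0 in every library but sham library 3, at 0.04 FPKM.

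Other genes of the cycle were taken from lists that share no gene with the 47. Of 22 tested genes of a second S phase list 15 rose and 2 fell at day 3, of 13 of a second mitosis list 8 rose and 0 fell, and of 26 G1 regulators 16 rose and 2 fell. The called shares were 77.3%, 61.5% and 69.2%, beside the 59.9% of all tested genes, and under median-of-ratios scaling the lists had 13 genes higher and 3 lower, 6 and 0, and 12 and 3. Their median log2 fold changes were 0.52, 0.68 and 0.43, against 0.59 for the tested genes of the 47 and 0.25 for all tested genes, and the lists were not tested against each other. Cdkn1a, which encodes p21, stood at 262.56, 295.84 and 287.95 FPKM at day 3, 5.44, 9.11 and 3.00 FPKM at day 7 and 12.21, 3.80 and 5.64 FPKM in sham. Gtse1, a G2 and S phase protein and itself a p53 target, was at 13.42, 15.89 and 18.91 FPKM at day 3, 0.11, 1.09 and 0.22 FPKM at day 7 and 0.32, 0.59 and 0.15 FPKM in sham. Both were far above every other library at day 3 alone, by 5.24 ± 0.40 (Cdkn1a, adjusted p = 1.87e-05) and 3.66 ± 0.25 (Gtse1, adjusted p = 1.06e-05) over sham. Among G1 regulators Ccng1, a cyclin induced by p53, and the Cdk4 inhibitor gene Cdkn2b (p15) followed with rises of 3.27 ± 0.23 and 1.93 ± 0.26, while Lin52, of the DREAM complex, and Tfdp2, a partner of E2F, fell (-0.92 ± 0.33 and -0.60 ± 0.22). Orc6, a subunit of the origin recognition complex, led the second S phase list at 6.98, 10.83 and 11.13 FPKM at day 3, 2.88, 2.97 and 2.26 FPKM at day 7 and 2.00, 1.44 and 1.22 FPKM in sham, a rise of 2.05 ± 0.19 (adjusted p = 4.44e-05). Tipin (1.18 ± 0.19), of the fork protection complex, and Slbp (1.10 ± 0.24), which binds histone mRNA, were next. Smc4, a condensin subunit, and Hmgb2 rose by 1.74 ± 0.19 and 1.62 ± 0.22 in the mitosis list.

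Against these, Pold2, a polymerase subunit, fell by 0.45 on the log2 scale at day 3 (SE 0.13, adjusted p = 0.0146). E2f1, an E2F family member and itself a gene of S phase entry, had 1.61, 0.98 and 1.19 FPKM at day 3, 0.65, 1.48 and 0.54 FPKM at day 7 and 1.04, 1.27 and 0.70 FPKM in sham. Its groups overlapped, and the day 3 difference was 0.17 (adjusted p = 0.486).

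Markers of other cell types differed between day 3 and sham as well, in a comparison where 39.3% of all tested genes were called higher and 20.6% lower. Of 7 injured tubule markers 6 rose, with summed levels of 8148 to 12999 FPKM at day 3 and 412.0 to 760.5 FPKM in sham. Most of these sums came from Spp1, at 6822.2 to 11192.05 FPKM at day 3 and 300.47 to 675.69 FPKM in sham. All 8 proximal tubule markers fell, with sums of 107.7 to 264.6 FPKM at day 3 and 1372 to 2355 FPKM in sham. The neutrophil list summed to 30.8 to 108.9 FPKM at day 3 and 2.74 to 14.6 FPKM in sham, with all 4 tested of its 9 genes higher and its precursor gene Mpo listed at 0 in all 6 of these libraries. In the macrophage list 1 of 7 tested genes rose and 4 fell, with sums of 132.0 to 199.0 FPKM at day 3 and 84.9 to 95.1 FPKM in sham, and Cd68 alone was at 86.69 to 113.57 FPKM at day 3. Of 6 tested erythroid markers 5 fell, with sums of 6.03 to 12.7 FPKM at day 3 and 112.6 to 137.8 FPKM in sham, and of 7 markers of other nephron segments 4 fell, with sums of 194.6 to 625.2 FPKM at day 3 and 1116 to 1833 FPKM in sham. Of 6 fibroblast markers 2 rose (0 under median-of-ratios scaling), with sums of 44.3 to 136.5 FPKM at day 3 and 44.6 to 49.3 FPKM in sham, and of 6 endothelial markers 2 fell, with sums of 24.4 to 66.8 FPKM at day 3 and 46.8 to 62.3 FPKM in sham. No lymphocyte marker passed the filter. The part of these cells in the levels of the cell cycle genes was not tested.

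**Figure D4:**
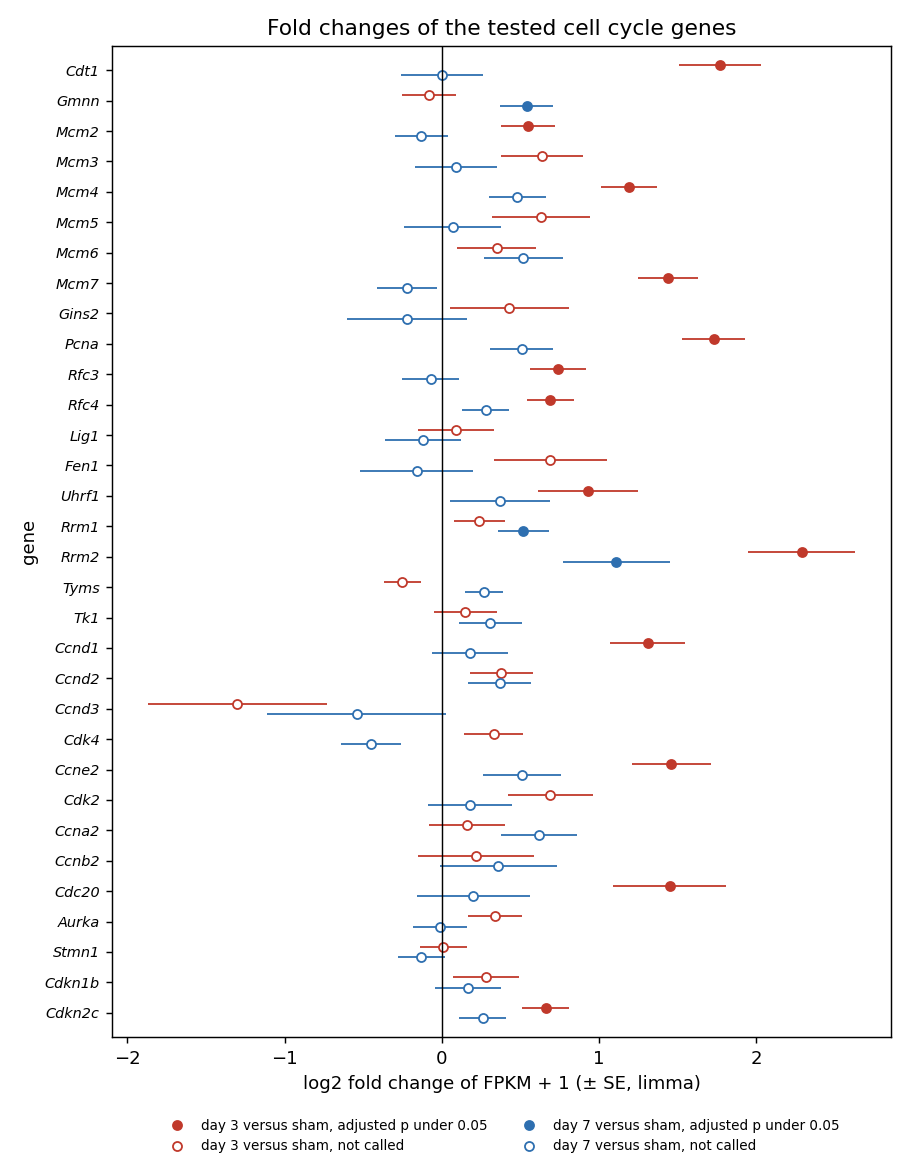
Log2 fold change of FPKM + 1 over sham (x axis, ± SE from limma) for each of the 32 tested genes (y axis), at day 3 in red and day 7 in blue; filled points have an adjusted p under 0.05. The 13 filled day 3 points all lie right of 0, from 0.55 for Mcm2 to 2.29 for Rrm2, and 3 day 7 points are filled.

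By day 7 most of the day 3 differences were smaller or gone. Between day 7 and day 3, 15 of the 32 tested genes were called, 13 lower and 2 higher at day 7, in a comparison where 55.4% of all tested genes were called, 33.7% lower and 21.7% higher (27.3% each way under median-of-ratios scaling, where 11 of the 32 genes were lower and 3 higher). Mcm7 fell by 1.66 on the log2 scale (SE 0.19, adjusted p = 0.000151), to 3.38 to 4.90 FPKM at day 7, against 10.84 to 16.64 FPKM at day 3, and its day 7 and sham ranges overlapped. Cdt1 fell by 1.76 (SE 0.26, adjusted p = 0.000601), Pcna by 1.23 (SE 0.20, adjusted p = 0.000839), Ccnd1 by 1.13 (SE 0.24, adjusted p = 0.00391) and Ccne2 by 0.94 (SE 0.25, adjusted p = 0.0108). Smaller falls were those of Rfc3 (-0.81 ± 0.18), Mcm4 (-0.71 ± 0.18) and Mcm2 (-0.68 ± 0.17). Cdk4 also fell, by 0.78 (SE 0.19, adjusted p = 0.00683), with 11.77 to 16.06 FPKM at day 7 and 22.03 to 27.69 FPKM at day 3. Tyms (0.52 ± 0.12, adjusted p = 0.00609) and Gmnn (0.62 ± 0.17, adjusted p = 0.0142) were the 2 genes higher at day 7 than at day 3, without overlap between the libraries. In the other lists 1 of 22 S phase genes rose and 9 fell (2 and 6 under median-of-ratios scaling), 5 of 13 mitosis genes fell (with Gtse1 at -3.58 ± 0.25, Cks1b, a subunit of cyclin-dependent kinase, at -1.5 ± 0.25 and Hmgb2 at -1.18 ± 0.22 as the largest), and 3 of 26 G1 regulators rose and 11 fell (5 and 11 under median-of-ratios scaling). Cdkn1a fell by 5.47 (SE 0.40), Myc by 2.46 (SE 0.27) and Cdkn2b by 1.91 (SE 0.26), while Ccnc (1.03 ± 0.13), Rbl2 (0.93 ± 0.18) and Ccnh (0.68 ± 0.20) rose, and Orc6 (-1.5 ± 0.19), Rpa2 (-1.02 ± 0.11) and Tipin (-0.87 ± 0.19) led the S phase genes that fell.

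Of these calls 4 were lost when single libraries were left out. Cdc20 (-1.25 ± 0.36, adjusted p = 0.0157) was lost without day 3 library 2 (0.0539) or 3 (0.0502) or day 7 library 1 (0.0577) or 3 (0.0593). Rrm2 (-1.18 ± 0.34, adjusted p = 0.0164) was lost without day 7 library 1 (0.0565) or 3 (0.0607), the libraries in which it was lowest. Rfc4 (-0.41 ± 0.15, adjusted p = 0.0488) and Cdkn2c (-0.39 ± 0.15, adjusted p = 0.0484) kept the call in 3 of 18 alternatives each. They lost it without any one library except day 7 library 2, at adjusted p between 0.0527 and 0.17 for Rfc4 and between 0.05 and 0.171 for Cdkn2c, and under both other scalings.

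Between day 7 and sham 3 of the 32 tested genes rose and 0 fell, where 29.7% of all tested genes were called (19.3% higher and 10.4% lower), and under median-of-ratios scaling 3 were higher and Cdk4 was lower (-0.56, adjusted p = 0.0187), beside 16.4% and 16.2% of all tested genes. Rrm2 was higher by 1.11 ± 0.34 (adjusted p = 0.0375), Gmnn by 0.54 ± 0.17 (adjusted p = 0.0458) and Rrm1 by 0.52 ± 0.16 (adjusted p = 0.042), and for all 3 every day 7 library was above every sham library. Altogether 7 of the 32 genes lay above sham in every day 7 library, against 29.5% of all tested genes. The other 4 were Pcna, Mcm4, Ccne2 and Ccnd2, which were not called (adjusted p = 0.0822, 0.08, 0.15 and 0.2). Each of the 3 calls was lost under several alternatives. Rrm2 was lost without day 3 library 2 (0.0551) or 3 (0.053), day 7 library 3 (0.0541) or sham library 1 (0.0737), 2 (0.0643) or 3 (0.098). Gmnn was lost without day 3 library 2 (0.0649), any day 7 library (0.102 to 0.11) or sham library 2 (0.108) or 3 (0.12). Rrm1 was lost without any one library except day 3 library 1 (0.0516 to 0.104). The number of called genes was 0 without day 3 library 2, without sham library 2, and without the second day 7 and second sham library together. In the other lists 5 of 22 S phase genes rose (with the origin recognition gene Orc2 at 0.75 ± 0.11, Rpa3 of the single-strand binding complex at 0.72 ± 0.11 and the clamp loader gene Rfc1 at 0.62 ± 0.11) and Pold2 fell by 0.46 (SE 0.13), and 2 of 13 mitosis genes rose, Smc4 (1.11 ± 0.19) and Cks2 (0.86 ± 0.12). Under median-of-ratios scaling the first list had 4 genes higher and 2 lower and the mitosis list 2 and 1. Of 26 G1 regulators 10 rose, led by Ccng1 (1.53 ± 0.23), Ccnc (1.05 ± 0.13) and Rb1 (0.94 ± 0.24), and 3 fell: Myc (-1.0 ± 0.27), Cdkn1c (-0.60 ± 0.15) and E2f4 (-0.57 ± 0.13).

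The 3 day 7 libraries were not alike. Of the 46 genes with a mean of at least 0.1 FPKM, library 2 was the highest of the 3 for 43, against 52.7% of 20429 genes at that level, and for 14 of 15 genes of G2 and mitosis. Under median-of-ratios scaling the first count was 39 of 46. The share of all genes under that scaling is not given here, so the 52.7% is no background for it. Library 2 had the largest scaling factor of the day 7 libraries (1.084, against 0.9838 and 0.9411). Library 2 was at least 2 times the higher of the other 2 libraries for 20 of the 46, against 7.32% of all genes, and for 12 of the 15. These are counts in 1 library with no replicate, so they carry no test. Bub1 was 6.71 times the mean of libraries 1 and 3 in library 2, Mki67 5.91 times, Cdk1 5.61 times, Ccnb1 5.58 times, Top2a 5.5 times and Aurkb 5.26 times. Genes of S phase entry were raised there less: the median ratio was 4.39 for G2 and mitosis, 2.47 for the E-type cyclins with Cdk2, 1.82 for the helicase, 1.75 for the fork, 1.57 for licensing, 1.52 for nucleotide supply, 1.36 for the D-type cyclins with Cdk4 and 1.13 for the inhibitors, and 1.10 for all genes. Rrm2 (3.19) and Uhrf1 (4.50) were the highest of their classes, whereas Gmnn (1.02), Foxm1 (0.846) and Cdk2 (0.821) were not raised.

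**Figure D5:**
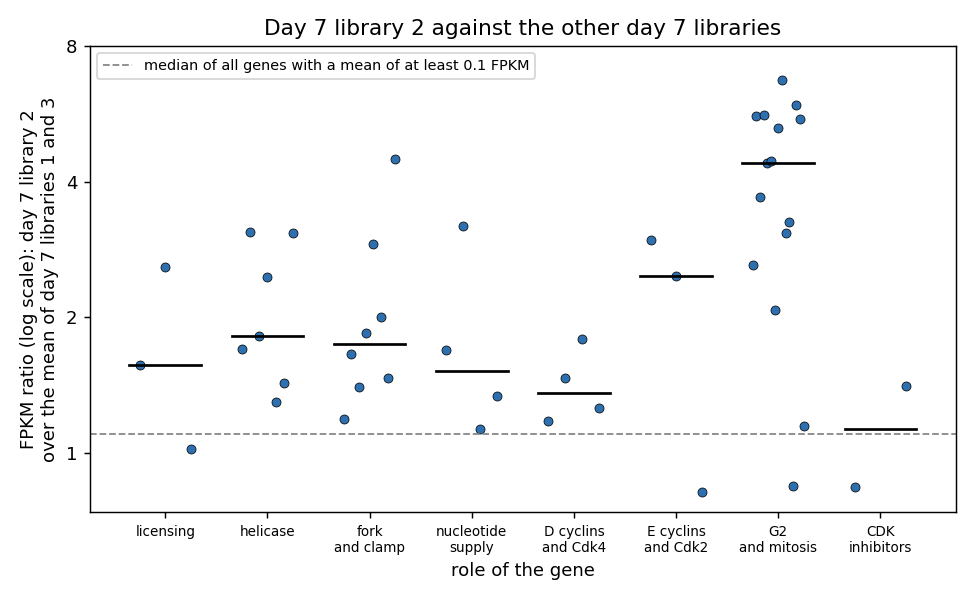
FPKM in day 7 library 2 divided by the mean of day 7 libraries 1 and 3 (y axis, log scale) for each gene, by role (x axis); black lines are the median of a role and the dashed line is the median of all genes with a mean of at least 0.1 FPKM, 1.10. Genes of G2 and mitosis have the highest median, 4.39.

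Across all 9 libraries, day 7 library 2 held the highest value for 17 of the 46 genes and for 10 of the 15 of G2 and mitosis, against 13.2% of all genes. It was above all 3 sham libraries for 35 of the 46 (43.7% of all genes), while libraries 1 and 3 were so for 15 and 13 (35.5% and 33.1%). Among the sham libraries, library 2 was the highest for 33 of the 46 genes, 14 of the 15 of G2 and mitosis among them, against 23.2% of all genes. Plk1 was at 1.69 FPKM in day 7 library 2 and 1.53 FPKM in sham library 2, and Ccnb2 at 2.61 FPKM and 1.92 FPKM in the same libraries. The spread between the day 7 libraries was as large as their mean for Mki67, which averaged 1.23 ± 1.32 FPKM at day 7 and 0.21 ± 0.173 FPKM in sham (SD, n = 3 each).

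Promoters of the mitosis genes were read in the same way for the CHR element (TTTGAA or TTCGAA) and the CCAAT box, on both strands. The CHR element was in 9 of 11 promoters of G2 and mitosis genes (81.8%) and the CCAAT box in 10 of 11 (90.9%), against 19.2% and 37.4% of all promoters in the table and 16% and 56.0% of the 25 promoters of replication, nucleotide supply and cyclin E genes with Cdk2. Short elements occur often by letters alone, as the shares of all promoters show. Mki67 (chr7:135716330-135716629), Top2a (chr11:99024140-99024439) and Cdk1 (chr10:69352863-69353162) are shown because they were among the most raised in day 7 library 2, and Cdc20 (chr4:118437294-118437593) because it alone of the class was called at day 3. All 4 lie on the minus strand, and capitals mark the 3 elements as before.
Mki67: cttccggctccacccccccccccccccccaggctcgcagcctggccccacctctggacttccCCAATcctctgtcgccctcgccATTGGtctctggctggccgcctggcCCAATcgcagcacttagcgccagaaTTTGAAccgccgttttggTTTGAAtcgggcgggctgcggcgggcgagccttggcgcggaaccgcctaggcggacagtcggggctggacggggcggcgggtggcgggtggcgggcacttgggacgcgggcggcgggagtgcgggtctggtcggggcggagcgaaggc
Top2a: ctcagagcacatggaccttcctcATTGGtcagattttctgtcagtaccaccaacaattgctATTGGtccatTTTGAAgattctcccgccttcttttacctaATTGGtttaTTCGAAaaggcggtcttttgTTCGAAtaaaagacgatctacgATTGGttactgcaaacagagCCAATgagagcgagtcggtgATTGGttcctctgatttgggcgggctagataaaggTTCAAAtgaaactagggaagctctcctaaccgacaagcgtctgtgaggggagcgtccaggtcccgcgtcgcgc
Cdk1: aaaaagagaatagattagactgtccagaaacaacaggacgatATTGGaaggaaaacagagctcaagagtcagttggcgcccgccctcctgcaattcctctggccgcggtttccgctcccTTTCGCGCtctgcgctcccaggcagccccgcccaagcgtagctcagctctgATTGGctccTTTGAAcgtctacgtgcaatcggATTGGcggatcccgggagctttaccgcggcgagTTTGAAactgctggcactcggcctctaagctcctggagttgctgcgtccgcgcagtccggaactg
Cdc20: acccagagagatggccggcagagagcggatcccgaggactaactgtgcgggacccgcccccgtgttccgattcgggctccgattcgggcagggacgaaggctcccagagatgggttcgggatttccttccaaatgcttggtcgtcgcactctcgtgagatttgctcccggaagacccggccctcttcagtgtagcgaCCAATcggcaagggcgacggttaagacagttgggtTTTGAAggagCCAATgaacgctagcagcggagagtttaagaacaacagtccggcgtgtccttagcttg
Both CHR and CCAAT letters stand in all 4, and the E2F element stands in Cdk1 only. Cdc20, which was high at day 3, and Mki67 and Top2a, which were not called there, thus share these letters. Ccnb1 is not shown, though it was raised more than Top2a in day 7 library 2 (5.58 against 5.5 times the mean of libraries 1 and 3). Its promoter held the CCAAT box and no CHR element, and that of Birc5 (3.07 times) held neither.

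Markers of other cells moved with day 7 library 2. Havcr1 was at 58.22 FPKM there and at 1.04 and 1.45 FPKM in day 7 libraries 1 and 3, and Vcam1, a gene of injured tubule cells, at 7.63 FPKM against 0.80 and 0.96 FPKM. All 7 injured tubule markers were highest there, with a sum of 1987 FPKM in library 2 against 619.7 and 652.8 FPKM in libraries 1 and 3. Spp1 alone held 1809.51 FPKM of that sum in library 2, and 551.74 and 575.54 FPKM in libraries 1 and 3. All 9 macrophage markers were highest in library 2 too, with a sum of 128.7 FPKM against 48.2 and 44.1 FPKM, as were all 6 fibroblast markers, with 60.6 FPKM against 30.1 and 30.4 FPKM, and all 7 lymphocyte markers, which summed to 1.22 FPKM at most. So were all 6 endothelial markers (54.9 FPKM against 44.2 and 40.3 FPKM) and 5 of 7 markers of other nephron segments. Of 20429 genes with a mean of at least 0.1 FPKM, 52.7% were highest in library 2. The neutrophil list summed to 22.7 FPKM against 4.56 and 10.2 FPKM, with Ly6g, Mpo and Elane listed at 0 in library 2. Erythroid markers went the other way, with 32.4 FPKM in library 2 against 98.8 and 354.0 FPKM, and the proximal tubule sum was 1249 FPKM against 1430 and 1463 FPKM. In sham library 2 Havcr1 was also the highest of its group, but the injured tubule sum (421.2 FPKM) lay between those of libraries 1 and 3 (760.5 and 412.0 FPKM). The sham sums were also mostly Spp1, at 300.47 FPKM in sham library 2 and 675.69 and 320.29 FPKM in sham libraries 1 and 3. The part of these cells in the levels of the mitosis genes was not tested.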

How the data were processed

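The authors deposited FPKM per gene and library, 9 tables with 3 per group. The submitters' processing notes name StringTie, HISAT, GRCm38 and FastQC 0.10.1, and their settings, the annotation and the strand setting of the counting were not given in the sources used here. RNA of 3 biological repeats per group went into a directional library kit, per the labels. Read depth is unknown, so no counting interval or floor is given, and precision rests on the spread between repeats. Groups were taken from the labels.

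Symbols came from GENCODE M21 (55144 of 55385 identifiers matched), and promoter sequences from RefSeq on GRCm38.p6. Tested genes had 1 FPKM or more in 3 or more of 9 libraries (13718, of which 32 of the 47). A limma model (version 3.58.1, R 4.3.3) with the group as its only term was fitted to log2(FPKM + 1) of all 9 libraries with eBayes and a trend, two-sided, and adjusted p-values (Benjamini-Hochberg, over every tested gene) under 0.05 were called. The scale understates changes of genes near 1 FPKM. Errors are SD over 3 libraries or the standard error from limma. The fit was tested on simulated data. No count model was used, since FPKM are not counts.

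The 47 genes, the other cell cycle lists and the marker lists were chosen with earlier results of these data known. Library values are given for the 47 genes, for Cdkn1a, E2f1, Havcr1 and Slc34a1, and for some leading genes of the other lists. Of those lists, up to 3 called genes each way per comparison are named, except 1 gene that is counted but not reported here. Vcam1, Spp1, Cd68, Ly6g, Mpo and Elane were named after their values were seen. Alternatives were the pseudocount (0.1), the filter (none, or 5 FPKM), both together, quantile normalization, median-of-ratios scaling, a robust eBayes, the 6 libraries of a comparison alone, a replicate block and leaving out each library. Leaving out day 7 library 2 and sham library 2 together was added after the data were seen.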

Additional observations from a re-analysis of the deposited data

Results flagged for a closer look

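For 6 genes the difference from sham had opposite signs at the 2 times, and the day 7 and day 3 libraries differed by limma. On the log2(FPKM + 1) scale, day 7 over day 3, the difference was -1.66 for Mcm7, -0.81 for Rfc3, -0.78 for Cdk4 and -0.68 for Mcm2, each above sham at day 3 and below it at day 7. It was 0.62 for Gmnn and 0.52 for Tyms, both below sham at day 3 and above it at day 7. Adjusted p ran from 0.000151 for Mcm7 to 0.0142 for Gmnn. All 3 day 7 libraries lay on 1 side of all 3 day 3 libraries for each of the 6 genes. The 6 were picked through the call in this same comparison, in which 55.4% of all tested genes were called. The separation of their libraries therefore adds no support. The sham differences were themselves called for Mcm7, Rfc3 and Mcm2 at day 3 and for Gmnn at day 7 only, and both comparisons share the sham libraries.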

How the results depend on the processing

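The 31 calls of single genes among the 47 were recomputed under 18 or 19 alternatives each, 570 values in all: 484 kept the direction and the call, 86 lost the call, 0 changed sign, and 21 calls were never lost. The day 3 count (13) went to 4 with a filter at 5 FPKM, which left 10 of the genes to test, and the day 7 over day 3 count (15) to 6. Of all genes tested with that filter 66.4% and 64.7% were called in these 2 comparisons. Between day 7 and sham the count (3) was 0 with no filter, with or without a pseudocount of 0.1, 0 without day 7 library 2 and sham library 2 together, and 1 with quantile normalization or with the 6 libraries alone. Gmnn was also lost between day 7 and day 3 without those 2 libraries (adjusted p = 0.0603). For the other cell cycle lists the filter at 5 FPKM gave 22 (day 3 over sham), 13 (day 7 over sham) and 18 (day 7 over day 3) calls among 30 genes, in place of 43, 21 and 29 among 61, and 5 were left between day 7 and sham without those 2 libraries. The shares of all tested genes were 66.4%, 37.4% and 64.7% with that filter, and 6.18% between day 7 and sham without the 2 libraries. With quantile normalization day 7 library 2 was the highest of 3 for 28 of 32 genes, those left by the filter, in place of 43 of 46. The share of all genes in that setting is not given here. Leaving out 1 library gave 11 to 15 calls (day 3 over sham), 0 to 4 (day 7 over sham) and 11 to 18 (day 7 over day 3) among the 47 genes, and 33 to 46, 12 to 22 and 23 to 35 in the other lists. Where no cause is named, the cause was not tested.

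With the replicate number as a block the counts were 16, 3 and 13 for the 47 genes and 43, 21 and 30 for the other lists. The samples share only a number: deviations of same-numbered libraries correlated at -0.054 to 0.238 over the tested genes, and not every pair exceeded 0.1. Read depth is unknown, and 15 of the 47 genes stayed below the filter, so differences at their level were tested only in the alternatives with no filter.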
